A study of Mus musculus with 13 samples.

Results

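Cells of the sebaceous lineage were taken from 5 single-cell libraries of newborn (P0) mouse back epidermis by their transcripts. A cell was a member when Scd1 made up at least 10 of each 10000 of its UMIs (molecular barcodes, by which each captured transcript is counted once) and at least 2 of Pparg, Awat2, Plin2, Cidea, Mc5r, Soat1 and Elovl3 were detected. Cells with Dct plus Pmel at 5 or more per 10000, or with more than 1 Tyrobp UMI, were left out as possible melanocytes or myeloid cells. The gate found 171 of 34852 cells in which no more than 10% of UMIs were mitochondrial and between 900 and 7700 genes were detected.

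All animals were C57BL/6 mice, taken at P0 but for 8 libraries of E14.5 and E16.5 embryos that served 1 comparison. The WT group had 2 libraries (WT 1 and WT 2), the Grhl3-/- group, which lacks the Grainyhead-like transcription factor GRHL3, had 2 (Grhl3-/- 1 and Grhl3-/- 2), and 1 further WT library, WT (v1), was made with the earlier Chromium v1 chemistry. According to the methods WT and Grhl3-/- animals were littermates, the back skin was cut well away from the spina bifida that the knockout embryos showed, epidermis was lifted off with Dispase and dissociated with Accutase, and both sexes were used. The labels give no promoter or cell type limit for the knockout, so the loss is taken as one in the whole animal. The v1 library has no replicate and stayed out of the tests unless stated.

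Sebaceous glands grow from the upper part of the hair follicle. Their cells start as keratinocytes at the edge of the gland, leave the cell cycle, fill with lipid droplets under the nuclear receptor PPARγ and finally burst to release sebum, a mixture of wax esters, triglycerides, sterols and their esters. Mouse sebum depends on stearoyl-CoA desaturase, which Scd1 encodes, and loss of this enzyme leaves mice with shrunken glands.

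The libraries held 49245953 to 107038146 UMIs over all barcodes, and 5058 to 9157 cells passed the limits. Between 53 and 96 cell barcodes of kept cells were shared by any pair of the 4 v2 libraries, none was shared with the v1 library, and no barcode was that of a member in more than 1 library. Xist, the transcript of the inactive X chromosome, reached at most 0.119 CPM (UMIs per 1000000 captured) over the kept cells of any P0 library, and the Y-linked Ddx3y lay between 43.7 and 52.5, although the methods name both sexes. Grhl3 was sparse and served only as a weak check. Over kept cells it had 7.0 and 8.29 CPM in WT 1 and WT 2, 6.34 in WT (v1), and 2.42 and 2.81 in Grhl3-/- 1 and 2, and where these 3′ tags fall relative to the knockout allele was not examined.

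Members made up a similar share of every WT library and a smaller share of both Grhl3-/- libraries. They were 55 of 6765 kept cells in WT 1, or 0.813% (95% exact binomial interval 0.613 to 1.06), and 50 of 6589 in WT 2, or 0.759% (0.564 to 0.999). In WT (v1) they were 38 of 5058, or 0.751% (0.532 to 1.03). The Grhl3-/- libraries held 19 of 9157, or 0.207% (0.125 to 0.324), and 9 of 7283, or 0.124% (0.0565 to 0.234). The 3 WT libraries thus lay within a narrow range and none of their intervals reached those of the Grhl3-/- libraries. These intervals cover counting error only.

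Between the v2 groups the mean share was 0.786% ± 0.0383 in WT and 0.166% ± 0.0593 in Grhl3-/- (SD, n = 2 each), a difference of -0.620 percentage points and a ratio of 4.75. An exact two-sided permutation test of 2 libraries against 2 cannot go below p = 0.333, so the difference stands against the spread of the libraries alone, which it exceeded. It was -0.409 points with a mitochondrial limit of 5%, where WT 1, whose members had a median of 5.19% mitochondrial UMIs, stood at 0.454%. Without any limit on Scd1, 4 or more of the 7 genes were detected in 1.54%, 1.21% and 2.16% of the cells of WT 1, WT 2 and WT (v1), and in 0.360% and 0.220% of those of Grhl3-/- 1 and 2. In all 10 gates and denominators read, the 3 WT libraries lay above both Grhl3-/- libraries.

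The choice of denominator changed the size of the difference. Keratinocytes with Krt79 at 10 or more per 10000 UMIs and Scd1 below the limit, called Krt79 cells here after the keratin of the follicle opening and gland duct, were 7.21% and 7.83% of kept cells in WT 1 and 2, 9.67% in WT (v1), and 3.20% and 4.42% in the Grhl3-/- libraries. Counted per 100 Krt79 cells and members together, members were 10.1 and 8.83 in WT 1 and 2 and 7.21 in WT (v1), against 6.09 and 2.72 in Grhl3-/- 1 and 2. On that scale the WT to Grhl3-/- ratio was 2.15, and the lowest WT value, that of the v1 library, still lay above both Grhl3-/- values. Fewer cells of the Grhl3-/- libraries thus passed either limit. Krt79 itself was lower there, with 255 and 419 CPM in Grhl3-/- other keratinocytes against 746 and 1159 in WT 1 and 2. Within Krt79 cells it had 4152 and 4440 against 5555 and 7441. The part of this in the count of Krt79 cells, and so in this denominator, was not tested.

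**Figure D1:**
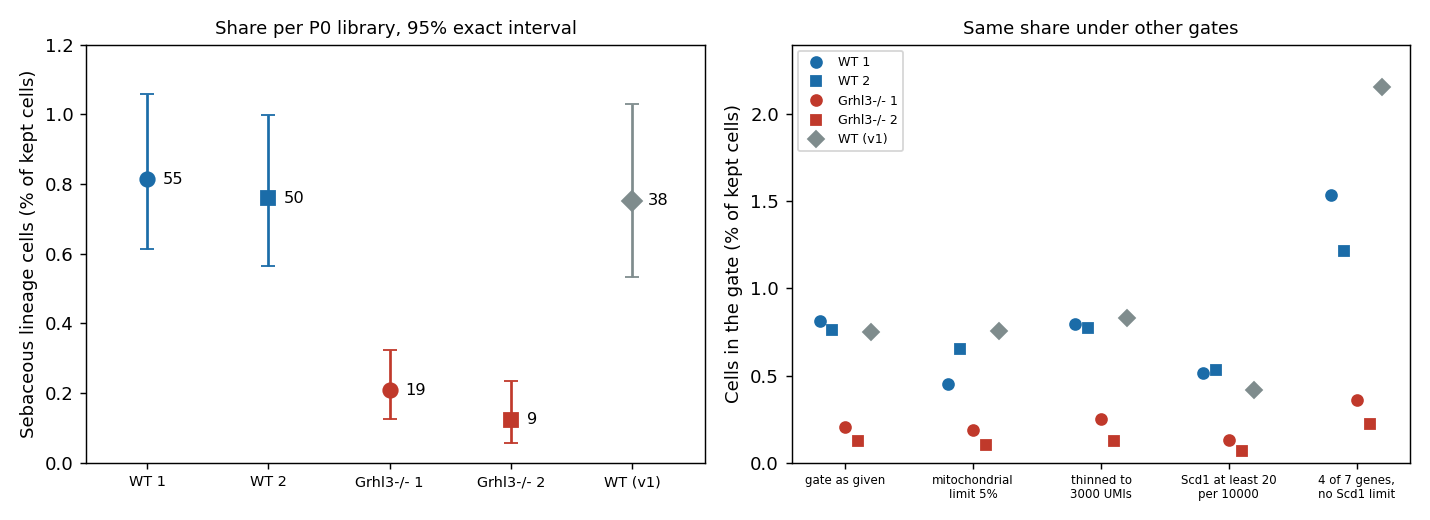
Share of sebaceous lineage cells among kept P0 cells (y axis, percent) by library. On the left, points are libraries, bars are 95% exact binomial intervals and the printed numbers are cells; on the right, the same share is drawn under 5 gates. WT libraries lie between 0.751% and 0.813% and Grhl3-/- libraries at 0.207% and 0.124% under the gate as given, and the groups stay apart under the others.

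No cell of the 8 libraries of whole back skin before birth (2 WT and 2 Grhl3-/- each at E14.5 and E16.5) passed the gate. Those libraries had 5267 to 8704 kept cells each, so 0 cells allow a share of up to 0.0345% to 0.0570%. The highest Scd1 in any of their cells was 3.76 to 8.01 per 10000, below the limit. These libraries hold dermis as well as epidermis, so their denominators differ from those at P0.

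Scd1 ran on across the limit in WT 1 and WT (v1), with a wider step in the other libraries, widest in Grhl3-/- 1. The lowest Scd1 of a member was 10.1, 12.1, 15.4, 11.5 and 10.3 per 10000 in WT 1, WT 2, Grhl3-/- 1, Grhl3-/- 2 and WT (v1), and the highest outside it was 9.75, 9.34, 9.19, 7.80 and 9.84. Between 5 and 10 per 10000, with at least 2 of the 7 other genes, lay 17, 7, 2, 1 and 18 further cells. Below the limit, 41, 23, 13, 6 and 61 cells with some Scd1 had 4 or more of the 7 genes, as did 9, 7, 2, 1 and 10 cells with no Scd1 UMI. Every cell past the Scd1 limit also had at least 2 of the 7 other genes. Between 0 and 6 cells a library past the Scd1 limit failed on Dct plus Pmel and 0 to 2 on Tyrobp. Over all 171 members Scd1 ranged from 10.1 to 125 per 10000 with a median of 29.3.

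The label was then checked against genes. Values chosen by the gate are a description here, and levels of members beside other cells carry no test. Cidea, a lipid droplet fusion protein, was detected in 100% of members of every library, Soat1, which esterifies cholesterol, in 94.7% to 100%, and Elovl3, an elongase of very long fatty acids, in 89.5% to 100%. Pparg was detected in 63.2% to 90% and Awat2, a wax synthase, in 55.6% to 84.0%. In the other keratinocytes (Krt5, Krt14, Krt1 and Krt10 together at 50 or more per 10000, Scd1 below the limit) Pparg was detected in 0.545% to 3.74% and Awat2 in 0.865% to 2.26%. The melanocortin receptor gene Mc5r was near its floor, with at most 10.0% of members of any library positive. Members held more UMIs than other keratinocytes, with medians of 9963 to 15256 against 8108 to 10196 per cell, so the detection shares are not at equal depth.

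Genes of sebaceous cells that the gate did not use ran the same way. Over the 12 listed, 9 were higher in members than in other keratinocytes in all 5 libraries and none was lower in all 5, with a median log2 ratio of 3.32. Adipocytes use many of the same lipid genes, and their defining transcripts were at 0 in members: Adipoq, Cfd, Car3 and Lep had no UMI, and Fabp4 had at most 6.66 CPM. Of the 10 adipocyte genes Retn, Adipor2 and Lpl were higher in members than in other keratinocytes in all 5 libraries, and lipoprotein lipase, Lpl, ranged from 13.3 to 142 CPM in them. Summed markers of fibroblasts, endothelium, blood, T cells and Merkel cells stayed at or below 13.3 CPM in members of every library. Hair follicle markers went otherwise, and summed to 118 to 370 CPM in members and 223 to 403 in other keratinocytes. Sums for the 2 kinds of cell that the gate left out through Dct, Pmel and Tyrobp include these genes, and so are in part set by it. Melanocyte markers summed to 24.3 to 67.9 in members and 31.8 to 82.8 in other keratinocytes, and Langerhans or macrophage markers to 18.2 to 81.5 against 22.0 to 70.1. Of the markers the members failed to show, Cidec and Plin5 stayed below 10 CPM.

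Many transcripts were far more abundant in members than in other keratinocytes. Among genes with at least 50 CPM in members of every library, 148 were at least 4-fold higher (with 5 CPM added to both sides) than in other keratinocytes in all 5 libraries. Against Krt79 cells the count was 125. The largest median ratio belonged to Cyp2g1, a cytochrome P450, at 8.67 on the log2 scale. It had 4005 and 6047 CPM in WT 1 and 2, 2825 and 3051 in Grhl3-/- 1 and 2 and 4763 in WT (v1), against 1.31 to 22.1 in other keratinocytes. Next came Elovl3 (7.99), the fatty acid 2-hydroxylase Fa2h (7.65), Soat1 (7.34) and Scd1 (7.24), each as a log2 ratio. Then followed the fatty acyl-CoA reductase Far2, which makes the alcohol part of wax esters (7.09), Elovl6 (7.07), the ceramide synthase Cers4 (6.92) and Cidea (6.81). Elovl3, Soat1, Scd1 and Cidea are gate genes, so their ratios are in part set by the gate. Scd1 was also held below the limit in the other cells. These gate genes are among the 148. The rest of the leading 15 were Hsd3b6, a steroid dehydrogenase (6.56), Serpina3b (6.34), Scd3 (6.33), Awat1 (5.80), the glutathione transferase Mgst1 (5.73) and Rarres1 (5.71). Scd1 and Scd3, and members of the Serpina3 family, resemble each other in sequence, and how reads were split between such copies is uncertain.

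Lists of genes by role were counted without the gate genes, whose levels the gate set. Over all genes with a UMI in either kind of cell, 9.02% were higher in members than in other keratinocytes in all 5 libraries and 27.2% lower, and over those with a mean of at least 50 CPM in either kind, 34.6% and 30.1%. Of 26 genes of fatty acid synthesis, elongation and desaturation, 18 were higher in all 5 and 1 was lower in all 5, with a median log2 ratio of 2.78. Besides the gate genes Scd1 and Elovl3, the most abundant were Elovl4 at 1246 to 5517 CPM, Elovl6 at 1647 to 3837, the enoyl reductase Tecr at 1686 to 4511 and the 3-ketoacyl reductase Hsd17b12 at 1311 to 1772. Fasn, the fatty acid synthase itself, was lower than these elongases, at 224 to 575. These levels are shares of captured transcripts, which a 3′ tag assay does not tie to gene length.

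Cholesterol synthesis followed, with 19 of 24 genes higher in all 5 libraries, 1 lower and a median log2 ratio of 2.70. Msmo1, a sterol demethylase, had 1409 to 2254 CPM. Peroxisomal and oxidation genes were higher for 19 of 23 and lower for none, with a median of 1.92. Crat, a carnitine acetyltransferase, had 238 to 441 CPM against 1.93 to 6.08 in other keratinocytes. Of 18 genes of triglyceride, wax and sterol ester synthesis 9 were higher in all 5 and 3 lower. Of 18 genes of lipid droplets and lipolysis 6 were higher and 3 lower, and those that were higher included Mgll, a monoglyceride lipase, at 649 to 1543.

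Among 17 genes of fatty acid uptake and binding 7 were higher and 6 lower. The most abundant transcript of all lists was Fabp5, an epidermal fatty acid carrier, at 11864 to 20796 CPM, and Apoe, a lipoprotein component, reached 7967 to 17097. Dbi, an acyl-CoA binding protein, went the other way, at 51.8 to 192 in members and 386 to 1427 in other keratinocytes. Of 25 transcription factors and receptors tied to the gland 8 were higher and 4 lower. Cebpb (993 to 2155) and Cebpa (373 to 1031), both factors of lipid-storing cells, led this list, and the gate gene Pparg had 88.2 to 184.

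**Figure D2:**
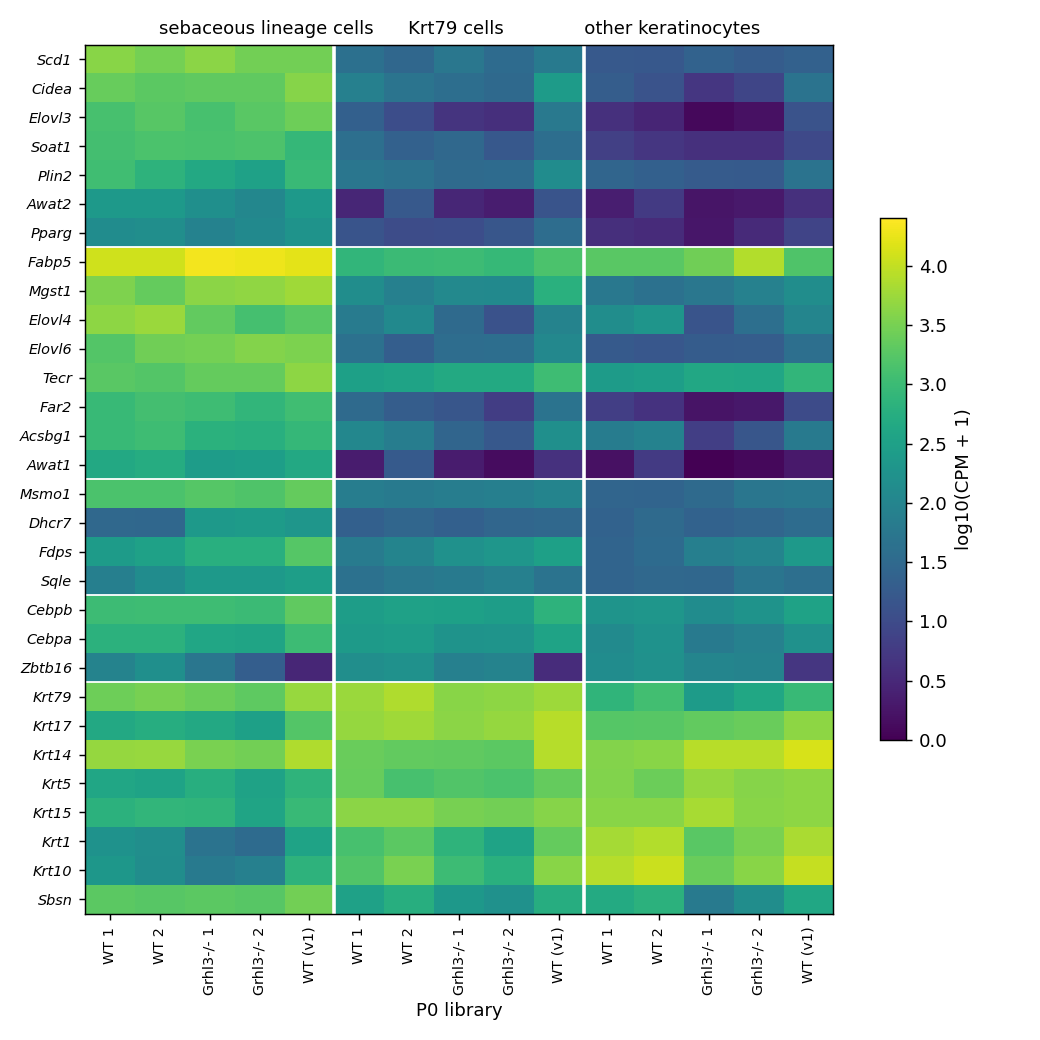
Levels of listed genes (rows) in sebaceous lineage cells, Krt79 cells and other keratinocytes of the 5 P0 libraries (columns). Colour is log10 of CPM plus 1, and white lines part gate genes, other sebaceous lipid genes, cholesterol genes, factors, and keratins with Sbsn; the gate and sebaceous lipid rows are brighter in members than in the other cells of each library, Dhcr7 is dim in members of WT 1 and WT 2, and Krt1 and Krt10 are bright in other keratinocytes.

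Lists of other epidermal cells held mostly genes that were lower in members, beside the 27.2% of all genes given above. Other keratinocytes were chosen on Krt5, Krt14, Krt1 and Krt10 together, so their higher levels of these 4 are in part set by that choice. All but 1 of the 12 genes of basal keratins and anchoring were lower in all 5 libraries, and the cell cycle list had 35 of 40 lower and none higher. Hedgehog and Wnt genes were lower for 18 of 25 and higher for none, and suprabasal keratin and envelope genes for 11 of 15. Krt1 had 33.3 to 357 CPM in members and 1850 to 7789 in other keratinocytes. The exception among the envelope genes was Sbsn, suprabasin, at 1799 to 2912 in members and 64.8 to 671 in other keratinocytes. Immediate early and heat shock genes, which dissociation can induce, were lower for 12 of 16.

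Members kept one tie to the follicle opening. Krt79 was detected in all 171 of them and had 2708, 3165, 2558, 2065 and 5196 CPM in WT 1, WT 2, Grhl3-/- 1, Grhl3-/- 2 and WT (v1). These values exceeded those in other keratinocytes (255 to 1159), while Krt79 cells are not compared, having been chosen on this gene. Of the 17 genes of the upper follicle and junctional zone, Krt79 and Cst6 were the 2 that were higher than in other keratinocytes in all 5, and 12 were lower. Krt17 and Krt15 were among the lower, with 320 to 1671 and 366 to 930 in members.

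The 2 keratins of the basal pair did not keep step. Krt5 and Krt14 form 1 filament, and in other keratinocytes the Krt14 to Krt5 ratio of UMIs was 1.03, 1.55, 1.64, 2.16 and 2.96 in WT 1, WT 2, Grhl3-/- 1, Grhl3-/- 2 and WT (v1). In members it was 12.8, 14.7, 5.63, 8.43 and 10.5. Members had little Krt5 (340 to 726 CPM against 2627 to 5098) while their Krt14 (2864 to 7588) overlapped that of other keratinocytes (3811 to 13407). Krt79 cells, with ratios of 1.03 to 3.51, lay with the other keratinocytes. The lowest ratio in members was above the highest in either comparison set.

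**Figure D3:**
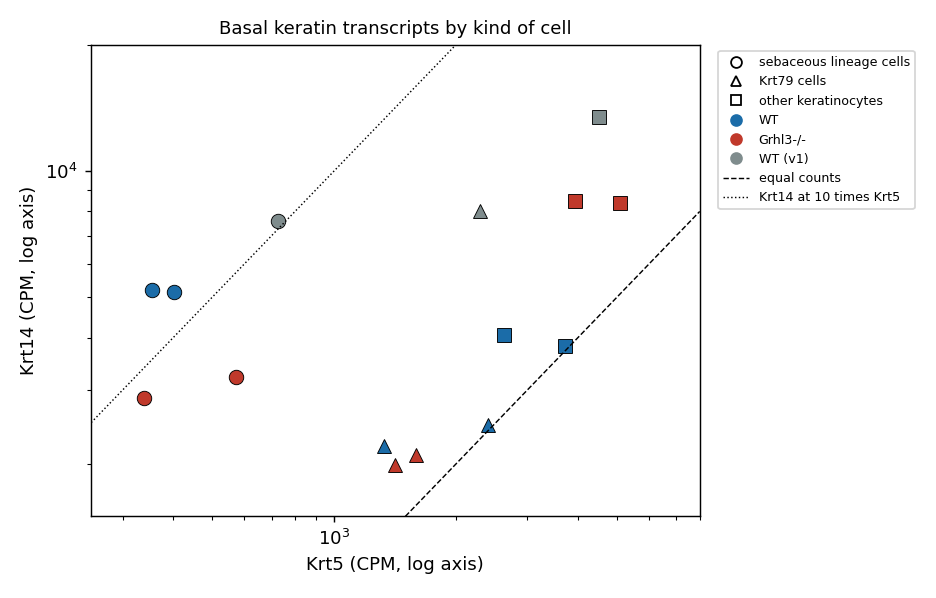
Krt14 (y axis) against Krt5 (x axis), both in CPM on log axes, with 1 point per P0 library and kind of cell. The dashed line marks equal counts and the dotted line a Krt14 level 10 times that of Krt5. Sebaceous lineage cells (circles) lie to the left, with ratios of 5.63 to 14.7.

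Members also differed among themselves. Ranked by Krt5 plus Krt14 in each library and cut into terciles, they had more of many lipid transcripts at the high end. Grhl3-/- 2, with 3 cells a tercile, was not counted. Of 83 lipid genes with a mean of at least 50 CPM, 33 were higher in the highest than in the lowest tercile in all 4 remaining libraries and 2 were lower, gate genes included. Over all genes at that level, 17.6% were higher and 16.4% lower. The lists differed, with 14 of 22 genes of fatty acid synthesis higher and none lower, but 4 of 20 of cholesterol synthesis higher and 1 lower, and 1 of 8 of uptake and binding higher and 2 lower. A tercile is a range of 1 score, not a cell type, and no test was made.

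Elovl4, an elongase of the longest fatty acids, was among the 33. From the lowest to the highest tercile it had 1016, 4547 and 9724 CPM in WT 1, 1599, 5868 and 11506 in WT 2, 635, 677 and 4354 in WT (v1), and 144, 351 and 5855 in Grhl3-/- 1. All 4 libraries were highest in the top tercile. Grhl3-/- 2 ran the other way, with 1608, 1606 and 0, over its 3 cells a tercile. On the log2 scale (with 20 CPM added) the wax synthase Awat1 was 3.04, 3.22, 2.58 and 0.79 higher in the top tercile in WT 1, WT 2, Grhl3-/- 1 and WT (v1), and Awat2 2.07, 2.19, 1.50 and 1.50. Cidea, Scd1 and Sbsn were also higher at the top in these 4. Soat1 was not, at -0.13, -0.40, 0.33 and -0.04.

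The 2 keratins that made the order went opposite ways in WT 1. Krt14 was 1.46, 1.61, 1.20 and 0.87 higher in the top tercile, whereas Krt5 was -0.81, 0.64, 1.70 and 0.90. Top2a, a gene of dividing cells, was -0.82, -0.80, -2.84 and -0.81, and Lhx2, a follicle stem cell factor, was -1.47, 0.40, -1.83 and -2.60. Of the 8 cell cycle genes at this level 2 were lower at the top in all 4 libraries and none higher, and the median over the 8 was 0.22 in WT 2 and below 0 in the others. Cells at the low end had more Top2a in each of the 4 libraries, and more Lhx2 in all but WT 2.

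**Figure D4:**
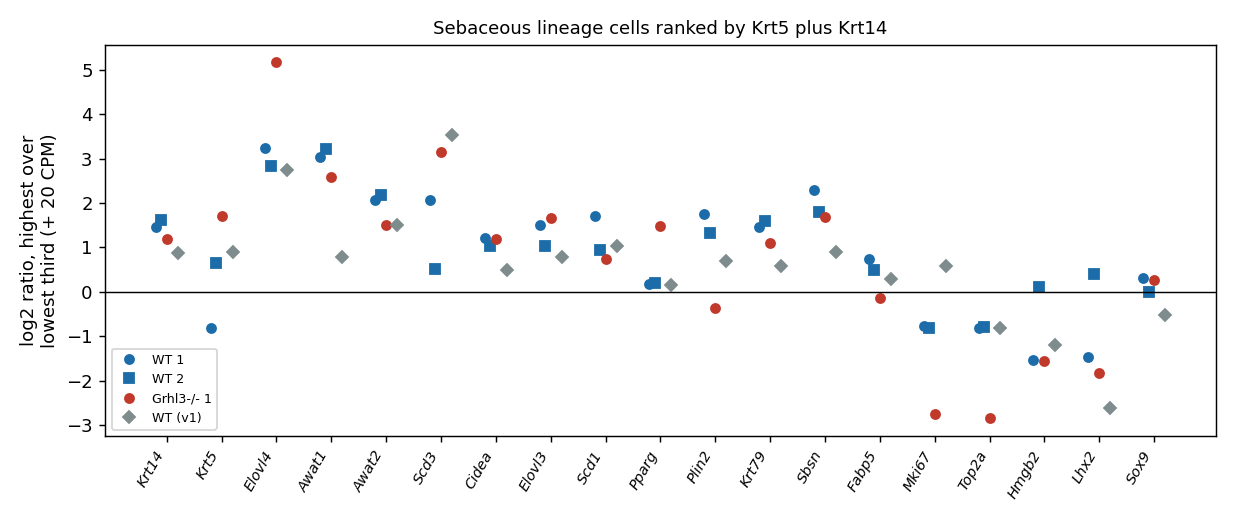
Log2 ratio of summed CPM (20 added) in the highest over the lowest tercile of sebaceous lineage cells ranked by Krt5 plus Krt14 (y axis), by gene (x axis). Points are 4 libraries. Wax and elongation genes such as Awat1 and Elovl4 lie above 0 in each, Top2a below 0, and Krt5 on both sides.

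The next comparison asked how the transcripts of these cells differed without Grhl3. UMIs were summed over the members of each library, which gave 630412 and 983873 in WT 1 and 2 and 328806 and 150114 in Grhl3-/- 1 and 2. Of 5287 genes tested, 529 (10.0%) passed an adjusted p of 0.05 in edgeR's quasi-likelihood test, 244 higher (4.62%) and 285 lower (5.39%) in Grhl3-/-, and the median log2 fold change over all genes was -0.02. The v1 library, which this test did not use, lay nearer the Grhl3-/- mean for 410 of these 529 genes and nearer the WT mean for 119, on the scale of log2 CPM with 5 added, which is meant by side below. With it added to WT, 1 gene was called, Gm8730, and 326 had an unadjusted p under 0.05. The differences below thus hold between 2 WT and 2 Grhl3-/- libraries, and the side on which WT (v1) lay is given with most of them. The median mitochondrial share of members was 5.19% and 4.28% in WT 1 and 2, 3.11% and 2.94% in Grhl3-/- 1 and 2, and 1.43% in WT (v1). The part of this in the gene differences was not tested. The methods state that the compared WT and Grhl3-/- littermates shared a pregnancy. The p-values thus measure at most the spread between these libraries, not that between litters.

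The gate genes come first, as a description, since the gate selected cells on them and so in part sets their likeness between groups. Scd1, which the gate holds above a limit, had 4096 and 3021 CPM in WT 1 and 2, 4306 and 2904 in Grhl3-/- 1 and 2 and 2886 in WT (v1). Cidea had 2356, 1948, 2092, 2078 and 4002 in the same order, and Soat1 1217, 1448, 1372, 1466 and 835. For these 3 and for Elovl3 the ranges of the v2 groups overlapped, while for Plin2, Awat2 and Pparg WT lay above Grhl3-/-. Over all genes tested the groups lay apart, with no overlap, for 27.1% with Grhl3-/- higher and for 29.8% with Grhl3-/- lower. Plin2, the main coat protein of lipid droplets, had 1141 and 691 in WT, 447 and 326 in Grhl3-/- and 974 in WT (v1). Awat2 had 228 and 240 against 152 and 107, with 227 in WT (v1).

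Fatty acid synthesis genes moved both ways, with 3 of 20 tested higher, 5 lower, 12 not called and a median log2 fold change of -0.01. The 5 that fell were 3 elongases, a desaturase and an acyl-CoA synthetase. Members of the groups also stood apart on the Krt5 plus Krt14 score, with medians of 51.4 and 51.2 per 10000 in WT, 31.9 and 30.9 in Grhl3-/- and 76.3 in WT (v1), and the elongases and the desaturase, Elovl4, Elovl5, Elovl7 and Scd3, were higher in the top tercile of that score in all 4 libraries counted. The part of this in their change was not tested. Elovl5, which lengthens polyunsaturated fatty acids, had 861 and 1951 CPM in WT, 252 and 113 in Grhl3-/- and 136 in WT (v1). Its log2 fold change was -2.84 ± 0.38 (adjusted p = 0.000934), where ± here and below is an SE worked back from the test's F. Elovl4 had 4521 and 5517 in WT, 2214 and 1246 in Grhl3-/- and 1889 in WT (v1), a change of -1.51 ± 0.22 (adjusted p = 0.00143). The WT v2 libraries were high for both, and WT (v1) lay within the Grhl3-/- range.

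Elovl7 (-2.58) and Scd3 (-1.51) fell with WT (v1) on the Grhl3-/- side, and Acsbg1, an acyl-CoA synthetase, fell by 0.69 on the log2 scale with WT (v1) on the WT side. Acly, Acss2 and Scd2, of which the first 2 supply acetyl-CoA, were higher by 0.91, 1.17 and 1.99, with WT (v1) on the Grhl3-/- side for Acly and Acss2 and on the WT side for Scd2. Of 11 genes of triglyceride, wax and sterol ester synthesis 2 were lower and none higher. Awat1 had 444 and 520 in WT, 268 and 286 in Grhl3-/- and 450 in WT (v1), a change of -0.79 ± 0.21 (adjusted p = 0.032). Here the v1 library lay within the WT range.

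Far1, a partner of Far2 in making fatty alcohols, had 28.6 and 92.5 CPM in WT and 3.04 and 0 in Grhl3-/-. These were 109 UMIs in the WT libraries, of which WT 2 gave 91, and 1 in the Grhl3-/- libraries, a ratio of 32.3 after scaling to the UMIs captured, with a counting interval of 5.68 to 1289. Without WT 2 the ratio was 13.7. Its level in WT (v1) was 15.5 CPM, nearer to Grhl3-/-. Far2, the abundant one of the pair, had 906 and 1208 in WT, 1068 and 799 in Grhl3-/- and 1139 in WT (v1), and was not called (log2 fold change -0.15, adjusted p = 0.675).

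Of 9 tested genes of lipid droplets and lipolysis outside the gate, 2 were lower, none was higher, 7 were not called and the median was -0.43. Hilpda, a droplet protein that inhibits the triglyceride lipase Pnpla2, had 181 and 186 CPM in WT, 12.2 and 0 in Grhl3-/- and 23.3 in WT (v1), a change of -4.42 ± 0.49 (adjusted p = 0.000322). Pnpla2 itself fell by 0.99, also with WT (v1) on the Grhl3-/- side. Both v2 WT libraries were high for Hilpda and the other 3 libraries low. Fabp5 rose by 0.74 ± 0.10 (adjusted p = 0.001), from 11864 and 12146 to 20796 and 19066, with 16406 in WT (v1). Of 18 peroxisome and oxidation genes 1 was higher (Acadl, 1.32) and 3 were lower (among them Pex11a at -1.22 and catalase, Cat, at -0.96), with WT (v1) on the Grhl3-/- side for each of the 4.

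Cholesterol synthesis genes leaned upward. Of 22 tested, 6 were higher, 2 lower and 14 not called, 20 had a positive log2 fold change, and the median was 0.84 against -0.02 over all genes. Dhcr7, which makes cholesterol from its last precursor, had 30.1 and 28.5 CPM in WT, 234 and 260 in Grhl3-/- and 206 in WT (v1), a change of 3.07 ± 0.28 (adjusted p = 5.73e-05). The 2 WT v2 libraries were low and the other 3 high. Fdps, Acat2, Mvd, Sqle and Nsdhl were higher by 1.01 to 1.13. Hsd17b7 fell by 1.3. For all 8 the v1 library lay nearer Grhl3-/-, and for Fdps it was far higher than either group, at 1770 against 262 to 600. Summed over the 24 listed genes, members had 6393 and 7385 CPM in WT, 8050 and 8494 in Grhl3-/- and 11710 in WT (v1), the highest. Other keratinocytes also had more in Grhl3-/-, with 547 and 671 in WT, 729 and 963 in Grhl3-/- and 1170 in WT (v1). Of the 24, 3 were called in the test of the difference of effects described below.

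Promoter windows of 3 of these genes are printed: Plin2, a gate gene that lay lower in both Grhl3-/- libraries, Dhcr7, the listed lipid gene that rose most, and Elovl5, an elongase that fell. They run from 250 bases before to 50 after a RefSeq transcription start on GRCm38.p6. Capitals mark CCAAT, the box that NF-Y binds and that often stands beside sterol response elements, and AGGTCA, the single element that nuclear receptors such as PPARγ read in pairs, on either strand (ATTGG and TGACCT on the minus strand).
Plin2, chr4:86670010-86670309, minus strand: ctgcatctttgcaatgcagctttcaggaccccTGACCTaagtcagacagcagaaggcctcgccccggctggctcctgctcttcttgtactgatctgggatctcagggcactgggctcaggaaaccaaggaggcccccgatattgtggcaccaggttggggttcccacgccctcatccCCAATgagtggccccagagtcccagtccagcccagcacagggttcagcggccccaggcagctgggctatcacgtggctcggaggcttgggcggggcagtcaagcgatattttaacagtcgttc
Dhcr7, chr7:143829964-143830263, plus strand, the last of its 3 windows: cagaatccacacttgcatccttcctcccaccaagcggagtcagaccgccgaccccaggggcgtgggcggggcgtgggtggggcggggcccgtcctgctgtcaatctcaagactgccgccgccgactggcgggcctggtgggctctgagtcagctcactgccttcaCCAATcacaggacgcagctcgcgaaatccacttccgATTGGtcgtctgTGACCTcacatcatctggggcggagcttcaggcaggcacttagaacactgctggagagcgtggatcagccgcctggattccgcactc
Elovl5, chr9:77917115-77917414, plus strand: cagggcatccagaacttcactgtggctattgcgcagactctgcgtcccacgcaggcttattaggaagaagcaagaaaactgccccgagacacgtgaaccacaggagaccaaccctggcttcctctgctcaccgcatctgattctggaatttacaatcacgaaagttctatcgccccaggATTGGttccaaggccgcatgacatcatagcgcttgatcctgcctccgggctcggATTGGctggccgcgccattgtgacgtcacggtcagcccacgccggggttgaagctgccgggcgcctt

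Among 32851 windows of all genes, 37.4% held CCAAT and 16.3% AGGTCA. Of the 19 windows of cholesterol synthesis genes 15 held CCAAT and 5 held AGGTCA, the latter all of Dhcr7, Hmgcs1 and Insig1. Of 18 windows of the listed sebaceous genes, 9 held CCAAT and 6 AGGTCA. The direct repeat of that element with 1 base between, the form that PPARγ and its partner RXR bind, was in 13 windows of all genes and in none of these lists. AACCGGTT, the Grainyhead site, was in 0.146% of all windows, in 1 of 281 windows of genes lower in Grhl3-/- and in 2 of 256 windows of genes higher. The other 2 windows of Dhcr7 held no CCAAT, and held AGGTCA 2 times and 1 time. These 2 windows overlap, and the AGGTCA of the second is also in the first. A match describes letters in a short window and is not a bound site.

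The 10 largest changes in each direction were taken from all genes tested. Socs2, a brake on growth hormone and cytokine signalling, had 500 and 631 CPM in WT, 18.2 and 0 in Grhl3-/- and 5.82 in WT (v1), a change of -5.48 ± 0.44 (adjusted p = 2.61e-05). Sgk1, a serum and glucocorticoid regulated kinase, had 345 UMIs in WT and 3 in Grhl3-/-, a ratio of 34.1 with a counting interval of 11.6 to 166. For both, WT (v1) lay with Grhl3-/-. Retn, the hormone resistin, had 309 and 825 in WT, 27.4 and 6.66 in Grhl3-/- and 202 in WT (v1), a change of -4.77 ± 0.56 (adjusted p = 0.000419). Here the v1 library was nearer WT, as it was for Prss22 and Asprv1.

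Prss22, a serine protease, had 82 UMIs in the WT libraries and 0 in Grhl3-/-, so it was at least 8.11-fold higher in WT, with a floor of 3 UMIs over the Grhl3-/- group, and WT (v1) had 23.3 CPM. Asprv1, a protease of the cornified layer, had 58.7 and 484 CPM in WT, 15.2 and 0 in Grhl3-/- and 293 in WT (v1). Trim7 and Eml6 were also among the 10 largest falls, each with WT (v1) on the Grhl3-/- side.

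Among the 10 largest rises, the long noncoding RNA Gm4208 had 19.0 and 49.8 CPM in WT, 633 and 1199 in Grhl3-/- and 274 in WT (v1), a change of 4.64 ± 0.38 (adjusted p = 2.73e-05). Gm8730, a processed pseudogene whose reads may be shared with its parent gene, had 132 and 177 in WT, 1046 and 1126 in Grhl3-/- and 99.0 in WT (v1), and rose by 2.50 in other keratinocytes too. Both Grhl3-/- libraries lay above every WT library for these 2, although WT (v1) was nearer Grhl3-/- for Gm4208. For Gm8730 it was nearer WT. Acaa2, a mitochondrial thiolase (1.76), the glycolytic enzyme gene Pgam1 (1.79), Hlcs, which attaches biotin to carboxylases (1.91), Nudt2 (1.98), Scd2 (1.99), Hist3h2ba (2.14), Timp3, a metalloproteinase inhibitor (1.74), and Dhcr7 completed the group. WT (v1) was nearer WT for Hist3h2ba, Scd2, Pgam1 and Timp3 and nearer Grhl3-/- for Acaa2, Hlcs and Nudt2.

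Of 14 tested transcription factors and receptors of the gland, 4 were lower, none higher and 10 not called, with a median of -0.74. Cebpa had 660 and 676 CPM in WT, 398 and 373 in Grhl3-/- and 1031 in WT (v1), a change of -0.77 ± 0.19 (adjusted p = 0.0252). Sox9, Igf1r and Zbtb16 also fell, with WT (v1) as low as Grhl3-/- or lower. Pparg had 140 and 147 in WT, 88.2 and 120 in Grhl3-/- and 184 in WT (v1), and is a gate gene. Grhl1, a relative of Grhl3, had 228 and 200 in WT, 88.2 and 73.3 in Grhl3-/- and 93.2 in WT (v1), and fell by 1.35 ± 0.27 (adjusted p = 0.0103). Grhl3 itself had 2 UMIs in WT and 1 in Grhl3-/- members, too few to compare.

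Of the keratins Krt14, Krt1 and Krt10 fell, while Krt5 (adjusted p = 0.434), Krt15 (0.448) and Krt79 (0.196) were not called. Krt14 had 5144 and 5207 CPM in WT, 3218 and 2864 in Grhl3-/- and 7588 in WT (v1), a change of -0.75 ± 0.13 (adjusted p = 0.00354). Krt1 had 171 and 149 against 45.6 and 33.3, with 357 in WT (v1), a change of -1.93 ± 0.32 (adjusted p = 0.00324), and Krt10 fell by 1.33. For all 3 the v1 library lay on the WT side, above both. Dst and Trp63 also fell, by 1.78 and 1.19, with WT (v1) on the Grhl3-/- side. Of the 5 suprabasal keratin and envelope genes tested, Krt1 and Krt10 were lower, Krtdap was higher, by 0.93 with WT (v1) on the Grhl3-/- side, and Sbsn and Calm4 were not called. The other keratinocytes of the same libraries, from which stray transcripts could reach any droplet, had Krt1 at 6488 and 7789 in WT, 1850 and 3291 in Grhl3-/- and 6807 in WT (v1). The part of such transcripts in the Krt1 and Krt10 values was not tested.

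Of 23 cell cycle genes 3 were higher (Mcm2, Tk1 and Cks2, with WT (v1) on the WT side for the last 2), none was lower, and the median was 0.62. The sum over the whole list was 1207 and 1184 CPM in WT, 1308 in Grhl3-/- 1 and 1054 in WT (v1). It stood out only in Grhl3-/- 2, at 2745, the library with the fewest members. There, 1 member held 39788 of the 150114 UMIs, with 19 of Top2a and 5 of Mki67, so each sum of that library leans on this cell. No other member of Grhl3-/- 2 had more than 1 Top2a UMI or 2 Mki67 UMIs. The part of this cell in the cell cycle sum was not tested. Hedgehog and Wnt genes had 2 of 9 lower, Axin2 by 2.24 and Tcf7l2 by 2.32, both with WT (v1) on the Grhl3-/- side, and none higher. Dissociation stress genes had 3 of 13 higher (Hspa1a, Hspa1b and Hsp90aa1, with WT (v1) on the WT side for the first 2) and none lower. Barrier genes outside Elovl4 had Asprv1 lower and Sptlc2, of sphingolipid synthesis, higher by 1.72 with WT (v1) on the Grhl3-/- side. No interferon gene passed the filter on low counts, and of the stress keratin list Krt17 and Stfa3 were tested and neither passed (adjusted p = 0.339 and 0.0663).

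**Figure D5:**
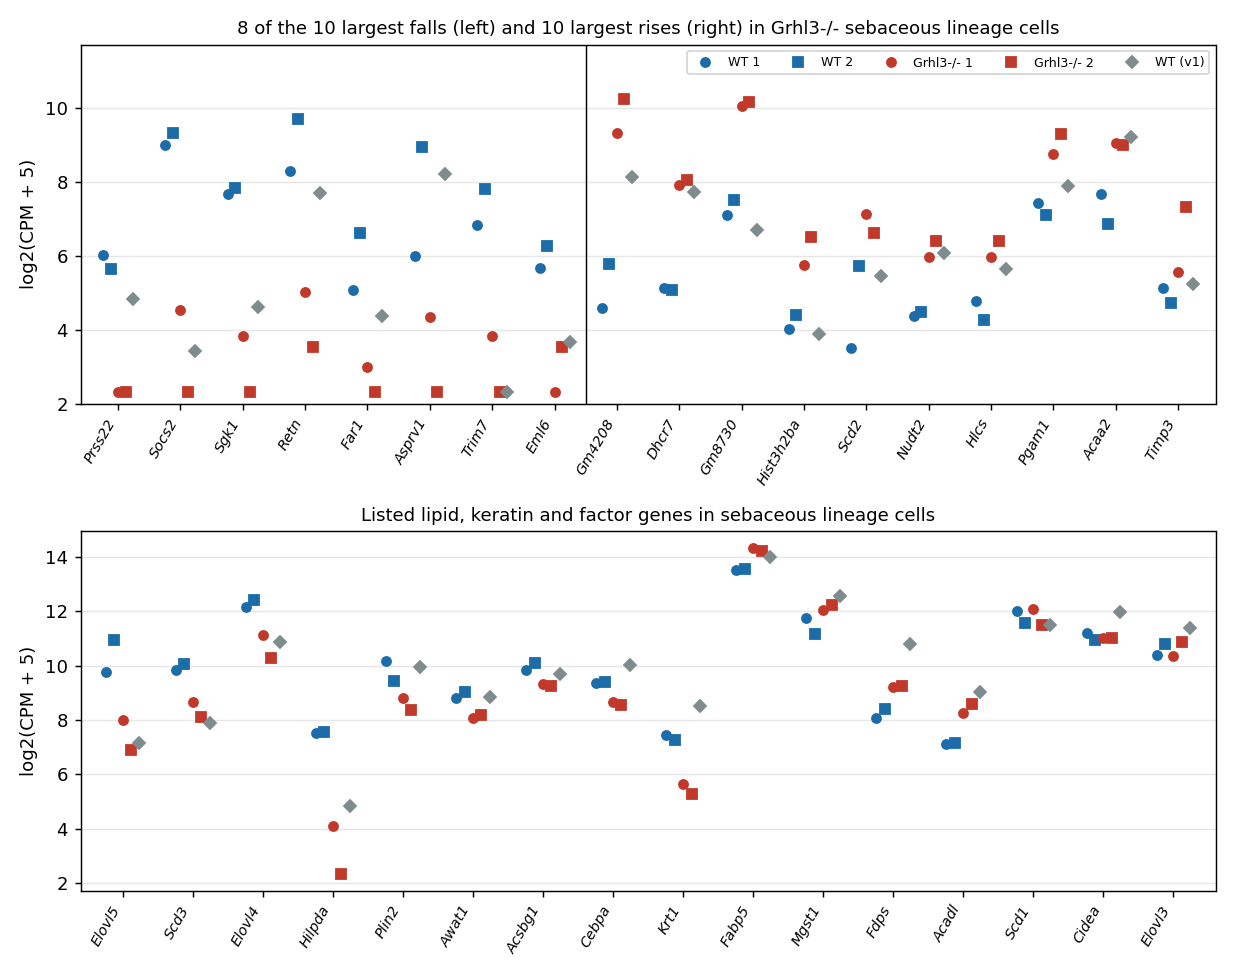
Level of each gene in sebaceous lineage cells (y axis, log2 of CPM plus 5) by gene (x axis), 1 point per library. The upper panel shows 8 of the 10 largest falls and the 10 largest rises between WT and Grhl3-/- v2 libraries, and the lower panel listed lipid, keratin and factor genes; WT (v1) (grey) lies with Grhl3-/- for Socs2 and Elovl5 and with WT for Retn and Awat1.

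The same contrast in other keratinocytes tells how far a change was shared. Of the 525 called genes that were also tested there, 303 had the same call and 10 the opposite one, where 20.1% of all genes tested in other keratinocytes were called. The 2 contrasts use the same libraries. A test of the difference of the Grhl3-/- effect between members and other keratinocytes, with the library as a block, filtered both kinds of cells together. It took in 12362 genes, against 5287 in the member test, so genes sparse in members could enter through the other keratinocytes. Of these 12362, 267 (2.16%) were called. For 85 (0.688%) the log2 change was more positive in members and for 182 (1.47%) more negative, with a median difference over all genes of -0.25. With RLE size factors the split was 111 and 146, a share of 43.2% positive in place of 31.8%, so the balance of directions depended on scaling. The adjusted p-values of this test are far smaller than those of the member test at a like change and SE. Socs2 had -5.48 ± 0.44 with 2.61e-05 in members, and a difference of -4.36 ± 0.42 with 8.48e-22. They rest largely on a spread shared over genes, not on that of each gene between 2 libraries a group. DESeq2 called 90 genes and the replicate block 67.

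For some lipid genes the change in members exceeded that in other keratinocytes. Hilpda had 10.7 and 12 CPM in other keratinocytes of WT 1 and 2 and 15.5 and 14.9 in those of Grhl3-/-, and the difference of effects was -5.05 ± 0.55 (adjusted p = 3.16e-17). For Elovl5 it was -2.42 (adjusted p = 5.3e-21) and for Far1 -5.11 (adjusted p = 2.9e-06). Upward, Dhcr7 differed by 3.09 ± 0.36 (adjusted p = 7.45e-15), with 23.3 and 32.3 against 22.9 and 27.3 in other keratinocytes. Acadl (1.45) and Acly (1.12) also differed upward. With Krt79 cells as the comparison, 179 genes were called, and the difference was -4.77 for Hilpda and 2.95 for Dhcr7.

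Other genes kept or raised their level in members while they fell in other keratinocytes, or fell less in members. Other keratinocytes hold basal and suprabasal cells, whose mix differed: their suprabasal keratin and envelope genes summed to 20547 and 26864 CPM in WT and to 6436 and 10394 in Grhl3-/-. The part of this mix in the differences was not tested. Acer1, an alkaline ceramidase, had 301 and 287 CPM in WT members and 502 and 500 in Grhl3-/- members, with 639 in WT (v1). In other keratinocytes it had 29.7 and 66.1 in WT and 3.17 and 6.42 in Grhl3-/-, and the difference was 3.97 ± 0.25 (adjusted p = 2.4e-52). Acsbg1 (a difference of 2.34) and Elovl4 (1.20) fell in both kinds of cells and less in members, each past the threshold. Acsbg1 had 70.8 and 87.6 CPM in other keratinocytes of WT and 5.48 and 14.1 in those of Grhl3-/-. Awat1 and Scd3 stood at or below 4.56 CPM in other keratinocytes of every library, too low to read a fold from. Cyp17a1, a steroid hydroxylase, had 857 and 959 in WT members, 438 and 726 in Grhl3-/- members and 606 in WT (v1), nearer Grhl3-/-. In other keratinocytes it had 14.0 and 19.8 in WT and 0.548 and 1.59 in Grhl3-/-, and the difference was 3.27 ± 0.27 (adjusted p = 5.56e-31). Against Krt79 cells the differences were smaller, 2.29 for Acer1 and 1.83 for Cyp17a1, and both were still called. In every library the level of these genes in other keratinocytes was below that in members. Members, from which stray transcripts could reach other droplets, were scarcer in the Grhl3-/- libraries, and the part of such transcripts in these differences was not tested.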

How the data were processed

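Members and gene lists were chosen with earlier results of these data known. Raw UMI counts per gene and barcode, aligned to mm10, were deposited by the authors for called cells. The processing notes name Cell Ranger 1.3.1, and the methods name a later version. The limits on genes and mitochondrial UMIs follow the methods. Doublets were not removed (an alternative left out the 4% with the highest Scrublet score, which held 0 or 1 members a library). Counts were summed per library over members, and over other keratinocytes or Krt79 cells, as deposited, then tested with edgeR 4.0.16 (R 4.3.3; filterByExpr, TMM, quasi-likelihood, Benjamini-Hochberg over all genes tested, threshold 0.05), with DESeq2 1.42.0 as another tool. The difference of effects was the interaction of genotype and kind of cell. The SE of a log2 change was its size divided by the square root of the F of its quasi-likelihood test. On simulated counts the member test recovered 16% of 2-fold and 89% of 4-fold changes, over 5194 genes, and the difference test 3% and 28%, over 12328 genes. Those counts had a fixed dispersion, and only genes with at least 10 expected UMIs in the smallest library were changed. The shares are thus not the power over all genes tested in these data. CPM (UMIs per 1000000) were read from the sums, and ratios to other cells had 5 added. Library sums of members hold 150114 to 983873 UMIs, so 1 UMI is worth up to 6.66 CPM in Grhl3-/- 2. Named genes are the gate genes and Grhl3, the 10 largest changes in each direction that passed the threshold, reached 5 in mean log2 CPM and had groups that did not overlap (gate genes left out), the 15 largest ratios to other keratinocytes, and up to the 6 most abundant genes of each list. Some genes that this rule takes in are not reported here. Listed genes beyond these were named after their values were seen. Replicate numbers of WT and Grhl3-/- were not used as pairs in the main tests. Coordinates and promoter sequences are RefSeq's on GRCm38.p6. Other steps used scanpy 1.11.5, scipy 1.17.1 and matplotlib 3.10.9 (Python 3.11.15). Other alternatives were RLE size factors, no filter on low counts, thinned sums or cells, narrower gates, Krt79 cells in place of other keratinocytes, the v1 library added to WT, and each library left out.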

Additional observations from a re-analysis of the deposited data

Results flagged for a closer look

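For 20 genes, the 10 largest in each direction, the Grhl3-/- effect in sebaceous lineage cells differed from that in other keratinocytes of the same libraries in edgeR's interaction test, and these differences (log2) are given as values. Fewer UMIs lay behind some than others.

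The effect was more negative in members for Hilpda (-5.05), Socs2 (-4.36), Sgk1 (-4.16), Asprv1 (-3.61), Trim7 (-3.13), 8430408G22Rik (-2.67) and Hacl1 (-2.49). Hacl1, a peroxisomal lyase of fatty acid oxidation, had 224 and 324 CPM in WT members, 57.8 and 66.6 in Grhl3-/- members and 182 in WT (v1), against 4.80 to 8.46 in other keratinocytes. It was thus far higher in members than in other keratinocytes of each library, and WT (v1) lay nearer WT. For 2610528A11Rik (-11.27) and Slc22a4 (-10.73) Grhl3-/- members had no UMI and WT members 5 and 26, and for Tpm2 (-4.71) they had 1 and 20, so these fitted values depend on the prior count and are no bounds.

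The effect was more positive in members for Agpat4 (4.27), Acer1 (3.97), Serpina3j (3.73), Gm4208 (3.47), Cyp17a1 (3.27), Rdh12 (3.26), Dgat2 (3.24), Dhcr7 (3.09), Dsg1a (2.75) and Itpr2 (2.64). UMIs in WT and Grhl3-/- members were few for Dsg1a (15 and 9), Agpat4 (22 and 18) and Itpr2 (22 and 14), and Dsg1a was too sparse for the member test. Gm4208 and Dhcr7 were not called in other keratinocytes, though Gm4208 rose by 2.38 in Krt79 cells. The other 8 fell in other keratinocytes, whose share of suprabasal transcripts was lower in Grhl3-/-. Against Krt79 cells the difference was 0.92 for Dgat2, 1.50 for Dsg1a, -3.02 for Tpm2 and -8.52 for Slc22a4, none of which was called, and it was called but smaller for Agpat4 (2.03), Acer1 (2.29), Cyp17a1 (1.83) and Gm4208 (2.14). Dgat2, the acyltransferase of triglyceride synthesis, fell by 3.06 on the log2 scale in other keratinocytes, from 52.5 and 61.0 CPM to 3.49 and 10.5. It had 49.2 and 28.5 in WT members against 48.7 and 20 in Grhl3-/- members, the last from 3 UMIs, and 215 in WT (v1), above all 4. Serpina3j fell in both, by 2.52 in members and by 6.40 in other keratinocytes, and its reads may be shared with other members of its family. In members WT (v1) lay nearer WT for Agpat4, Serpina3j, Dgat2 and Itpr2. It lay nearer Grhl3-/- for Acer1, Gm4208, Cyp17a1, Rdh12, Dhcr7 and Dsg1a.

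Leaving out 1 library ended the call for several of these genes. 2610528A11Rik and Slc22a4 lost it whichever library was left out. 8430408G22Rik (-1.62 and -0.83) and Tpm2 (-3.07 and -3.37) lost it without WT 2 and without Grhl3-/- 2. Asprv1 lost it without WT 2 (-1.66), Trim7 without WT 2 (-2.68) and without Grhl3-/- 1, Dgat2 (1.45) and Serpina3j (5.83) without Grhl3-/- 1, Itpr2 (2.35) without Grhl3-/- 2 and Dsg1a (2.41) without WT 1. Without Grhl3-/- 1 the other Grhl3-/- library had no UMI of Hilpda, Socs2, Sgk1, Asprv1, Trim7, 8430408G22Rik and Tpm2 in members, and their fitted values of -15.51 to -11.64 are no bounds. Dsg1a, which also had no UMI in members of that library, turned to -7.94 there, which is no bound either. Hilpda, Socs2, Sgk1, Acer1, Agpat4, Cyp17a1, Dhcr7, Gm4208, Hacl1 and Rdh12 kept their call with each library left out in turn. Of these 10, Socs2 lost it with DESeq2, and Socs2, Cyp17a1, Gm4208 and Hacl1 with thinned comparison sums, under which 6 of the 20 genes kept theirs.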

How the results depend on the processing

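The share difference kept its direction under every alternative. It was -0.409 points with a mitochondrial limit of 5%, -0.424 with Scd1 at 20 or more per 10000, -1.09 with 4 or more of the 7 genes and no Scd1 limit, -5.08 as a share of Krt79 cells and members, and -1.61 as a share of other keratinocytes and members (the last 3 chosen after seeing the data). As a share of other keratinocytes and members, WT (v1) stood at 0.999%, against 2.24% and 2.15% in WT 1 and 2 and 0.605% and 0.559% in Grhl3-/- 1 and 2. Other keratinocytes were 3766 of 5058 kept cells in WT (v1), 2404 of 6765 and 2271 of 6589 in WT 1 and 2, and 3122 of 9157 and 1602 of 7283 in Grhl3-/- 1 and 2. Leaving out 1 library gave -0.662 to -0.578.

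In place of 529 called genes DESeq2 called 209, sums thinned to the smallest library 203 and the v1 library in WT 1, and leaving out 1 library gave 403 to 508. No filter gave 620 calls, of which 32.1% were higher in Grhl3-/- in place of 46.1%. For the difference of effects DESeq2 called 90 in place of 267 and thinned comparison sums 32, and leaving out 1 library gave 110 to 232, with 110 without WT 2, 133 without Grhl3-/- 1 and 160 without WT 1.

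The replicate block called 697 genes in members, and in place of the library block 67 for the difference of effects. Deviations of replicate 1 correlated by -0.0727 across genes between WT and Grhl3-/-. With 2 libraries a group and few members in some, such a value cannot tell whether the numbers mark pairs. The 20 genes with the largest difference of effects kept their call for 10 under that block. Of 65 named genes called in members, 63 lost the call with v1 in WT, and Fdps reversed to -0.34. Leaving out 1 library kept 46 to 51 calls. 8430408G22Rik reversed to 1.66 with thinned comparison sums and lay between -15.51 and -0.83 with 1 library left out. Dsg1a reversed to -7.94 without Grhl3-/- 1 (up to 4.04 with another library left out). Members of Grhl3-/- 2 had no UMI of either gene, so -15.51 and -7.94, both without Grhl3-/- 1, are no bounds. The causes were not tested. Grhl3-/- 2, with 9 members, had the fewest UMIs, and without it 449 and 232 genes were called for the 2 tests.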
